A study of Mus musculus with 36 samples.

Results

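The 8 genes described here encode the lipid droplet coat proteins and their closest helpers: the 5 perilipins Plin1, Plin2, Plin3, Plin4 and Plin5, the droplet fusion protein gene Cidec, and the fat storage-inducing transmembrane genes Fitm1 and Fitm2. They were taken by gene symbol from the Ensembl identifiers of the deposited count table. Each symbol matched 1 identifier, giving 8 of the 54347 genes in the table. All 8 were among the 15340 genes that passed the filter on low values (CPM, counts scaled to a common library size, above 1 in at least 6 of the 36 libraries). Plin2, Plin3 and Fitm2 were above 1 CPM in all 36 libraries. Plin1 passed through its 9 adipocyte libraries alone and Fitm1 through its 9 myotube libraries alone, so a difference between cell types in those genes was built into the filter.

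A lipid droplet is a core of triglycerides and sterol esters inside a single layer of phospholipids, and the proteins on that layer decide when lipases reach the core. Plin1 is the coat of the large droplets of fat cells, where it holds back the lipase cofactor Abhd5 until hormones release it. Plin2 and Plin3 coat smaller droplets in most tissues, Plin4 is found mainly in white fat, and Plin5 is known from oxidative tissues, where it ties droplets to mitochondria. Cidec sits at the contact between neighbouring droplets and lets lipid pass from the smaller to the larger. The FIT proteins Fitm1 and Fitm2 are not coats in the strict sense, since they reside in the endoplasmic reticulum and help droplets to bud from it.

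Primary mouse adipocytes, macrophages, skeletal myotubes and hepatocytes were each exposed for 6 h to 5 mM butyrate, 5 mM β-hydroxybutyrate (βOHB) or the vehicle PBS, with 3 libraries for each of the 12 groups. Butyrate, a fatty acid made by gut bacteria, is a known inhibitor of histone deacetylases, and the ketone body βOHB differs from it by a hydroxyl group on the beta carbon. All cells came from wild-type male mice labelled C57Bl/6, with the hepatocyte substrain given as C57BL/6NHsd in the methods, and no age was stated. The paper adds that some primary cells, without naming which, came from male C57BL/6N mice in Munich. Site and substrain may thus also differ between cell types. The adipocytes were grown from the stromal vascular fraction of inguinal fat pooled from several mice and were differentiated with dexamethasone, isobutylmethylxanthine, insulin and the Pparg agonist rosiglitazone, with the rate of differentiation judged by eye. The macrophages were matured from bone marrow in L929-conditioned medium, the myotubes were fused from hindlimb myoblasts, and the hepatocytes were perfused from liver and rested overnight. Adipocytes and macrophages were treated in the same medium, and myotubes and hepatocytes each in another. In a comparison of control libraries cell type and isolation, and for every pair but adipocytes with macrophages also the treatment medium, cannot be told apart. The labels do not say whether the 3 libraries of a group came from separate mice or cultures, so the p-values measure the spread between these libraries, which may be technical.

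Library totals ran from 18366289 to 23221473 counts, and a floor of 3 counts was worth 0.117 to 0.188 CPM. Each cell type carried its own markers at a high summed level, though 1 of the 6 adipocyte markers averaged below 1 CPM in adipocyte controls. The 5 fibroblast markers summed to 1376 to 1461 CPM in macrophage controls, 778 to 932 CPM in myotube controls and 15.1 to 17.9 CPM in hepatocyte controls. Summed over 8 macrophage markers the macrophage controls read 17667 to 17842 CPM, and summed over 8 hepatocyte markers the hepatocyte controls read 44281 to 46134 CPM. Hepatocyte markers were present unevenly among the myotube libraries. The 8 hepatocyte markers summed to at most 0.176 CPM in the myotube controls, but to 27.7 CPM in βOHB replicate 3 and to 36.8, 667 and 155 CPM in butyrate replicates 1, 2 and 3. These butyrate values equal 0.0733%, 1.33% and 0.309% of the sum in butyrate-treated hepatocytes. Calls of members within myotubes that single libraries decided are named below with that library. Butyrate replicate 3 of the myotubes also stood apart from replicates 1 and 2 over all genes, with a chi-square per degree of freedom of 38.9 and 43.8 against them, where replicates 1 and 2 gave 9.01. Its 8 myotube markers summed to 18085 CPM, against 23851 and 23209 CPM in replicates 1 and 2.

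In the controls, the composition of the coat differed sharply between cell types. Levels of different genes are compared here only per kb of the longest coding transcript (CPM per kb). On that length Plin2 was the highest member in all 4 cell types, at 512 CPM per kb in adipocytes, 382 in macrophages, 68.4 in myotubes and 558 in hepatocytes. It made up 90.3% of the summed level of the 8 members in macrophages and 88.8% in hepatocytes. In adipocytes its share was 37.5%, followed by Plin1 with 23.3%, Cidec with 18.2% and Plin4 with 15.6%. In myotubes Plin2 held 45.1%, Fitm1 28.6%, Fitm2 16.4% and Plin3 9.81%. The order depends on the length used. Per kb of all exons merged, Fitm1 stood above Plin2 in myotubes (43.4 against 36.8 CPM per kb), and in adipocytes Plin2 (275.5) was followed by Cidec (231), Plin4 (212) and then Plin1 (193), while Plin2 still led in macrophages and hepatocytes. On the longest transcript the summed level was 1367 CPM per kb in adipocytes, 629 in hepatocytes, 423 in macrophages and 152 in myotubes.

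**Figure D1:**
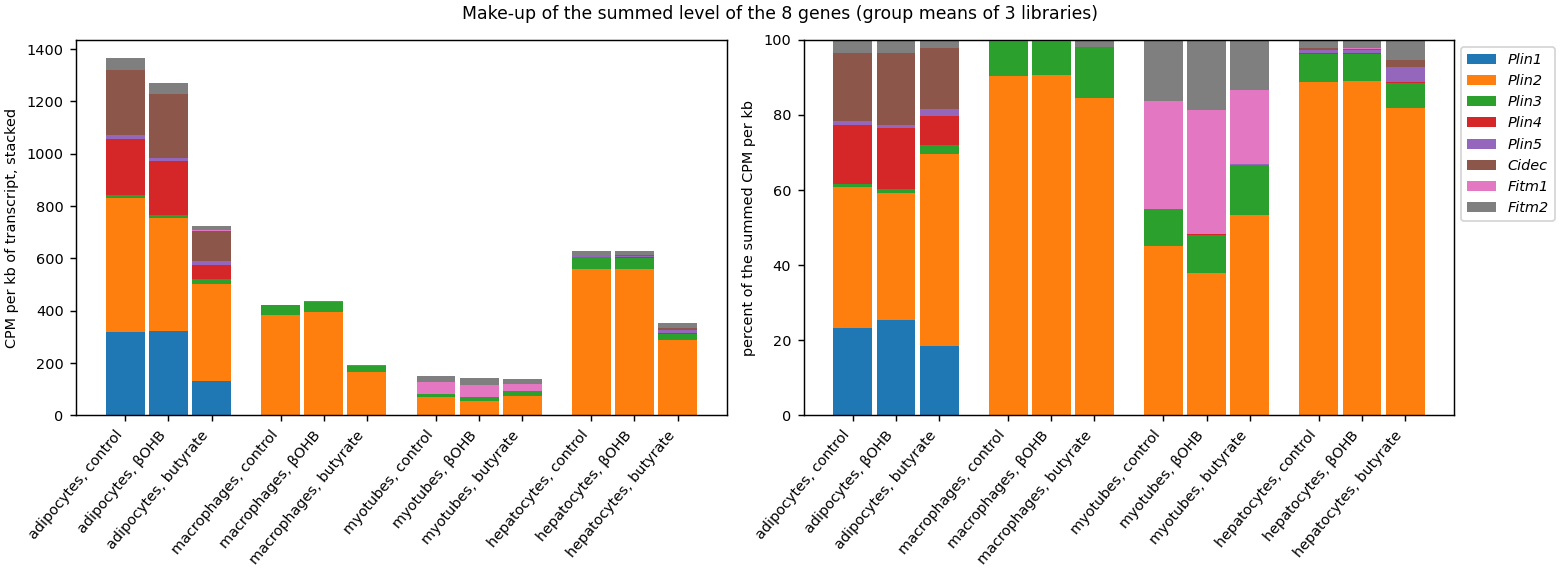
Summed level of the 8 genes in CPM per kb of the longest coding transcript (one panel) and the percent of that sum held by each gene (other panel), as stacked bars for the 12 groups, each the mean of 3 libraries. Plin2 fills most of the macrophage and hepatocyte bars, while Plin1, Cidec and Plin4 share the adipocyte bars with it.

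After butyrate the sum fell to 722 CPM per kb in adipocytes, 194 in macrophages and 353 in hepatocytes, while in myotubes it was 139. These are means without a test. Plin4 shrank from 15.6% to 7.60% of the adipocyte sum and Plin2 grew from 37.5% to 51.1% of it.

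Of the 48 comparisons of a member between the controls of 2 cell types, 41 were called at an adjusted p below 0.05 in the quasi-likelihood F test of edgeR, with p-values adjusted after Benjamini and Hochberg. Among the 41 are the adipocyte pairs of Plin1 and the myotube pairs of Fitm1. Their outcome was built into the filter and is not read as a result of the test. Over all genes the share called was 77.5% for adipocytes against macrophages, 78.2% for adipocytes against myotubes, 81.1% for adipocytes against hepatocytes, 82.2% for macrophages against myotubes, 82.1% for macrophages against hepatocytes and 86.6% for myotubes against hepatocytes. The 7 pairs that did not pass were mostly pairs of near-silent genes, namely Plin1 among macrophages, myotubes and hepatocytes, Cidec between macrophages and myotubes, and Fitm1 between adipocytes and macrophages. The other two were Plin2 between adipocytes and hepatocytes and Plin4 between macrophages and myotubes.

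Butyrate raised some members and lowered others in every cell type. In adipocytes 6 of the 8 passed the test, 1 raised and 5 lowered, where 61.0% of all tested genes were called. In macrophages 4 passed, 1 raised and 3 lowered, with 65.0% of all genes called. In myotubes 6 passed, 3 raised and 3 lowered, with 66.5% of all genes called, while 7 passed without butyrate replicate 3, the added one being Plin2, and 5 without butyrate replicate 1. In hepatocytes 6 passed, 3 raised and 3 lowered, with 63.5% of all genes called. These shares lie near the background of a treatment that moved most genes, so the counts by themselves say nothing particular about the coat genes. The median log2 fold change of the 8 members was -0.90 in adipocytes, -0.70 in macrophages, 0.21 in myotubes and -0.70 in hepatocytes, beside medians over all genes of 0, 0, 0 and -0.01. These medians take in members at or under the floor of 3 counts. Over the 7, 4, 6 and 7 members above it, a choice made after seeing the data, they were -1.08, -0.88, -0.16 and -0.45, so that the myotube median turned. It also turned without myotube butyrate replicate 3 (-0.036), the macrophage median turned without control replicate 1 (0.35), and the hepatocyte median was -0.086 without control replicate 2. No direction of the group as a whole is read from them in those cell types. The 3 butyrate libraries lay wholly on one side of the 3 controls for 6, 5, 6 and 6 members in these cell types, against 67.3%, 72.2%, 64.8% and 68.5% of all genes. The smallest p that an exact permutation test of 3 libraries against 3 allows is 0.1, and for that reason each member was tested within the fit of the whole table. In bulk RNA, fewer cells of a type and less RNA per cell cannot be told apart.

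βOHB changed none of the 8 members in any of the 4 cell types at that threshold of the edgeR test. The shares of all genes called for βOHB were 0.00652% in adipocytes, 0% in macrophages, 2.91% in myotubes and 0.00652% in hepatocytes. At an unadjusted p below 0.05 the count of members was 1, 0, 0 and 0, the one being Plin5 in adipocytes. DESeq2 and limma-voom also called 0 members in each cell type, whereas without the filter on low counts 1 was called, Plin2 in myotubes. The 3 βOHB libraries lay on one side of the controls for 2 members in adipocytes (Plin5 and Fitm2, both below), 0 in macrophages, 3 in myotubes (Plin2 below, Fitm1 and Fitm2 above) and 1 in hepatocytes (Fitm1 above). The same held for 12.7%, 11.1%, 22.9% and 6.71% of all genes.

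**Figure D2:**
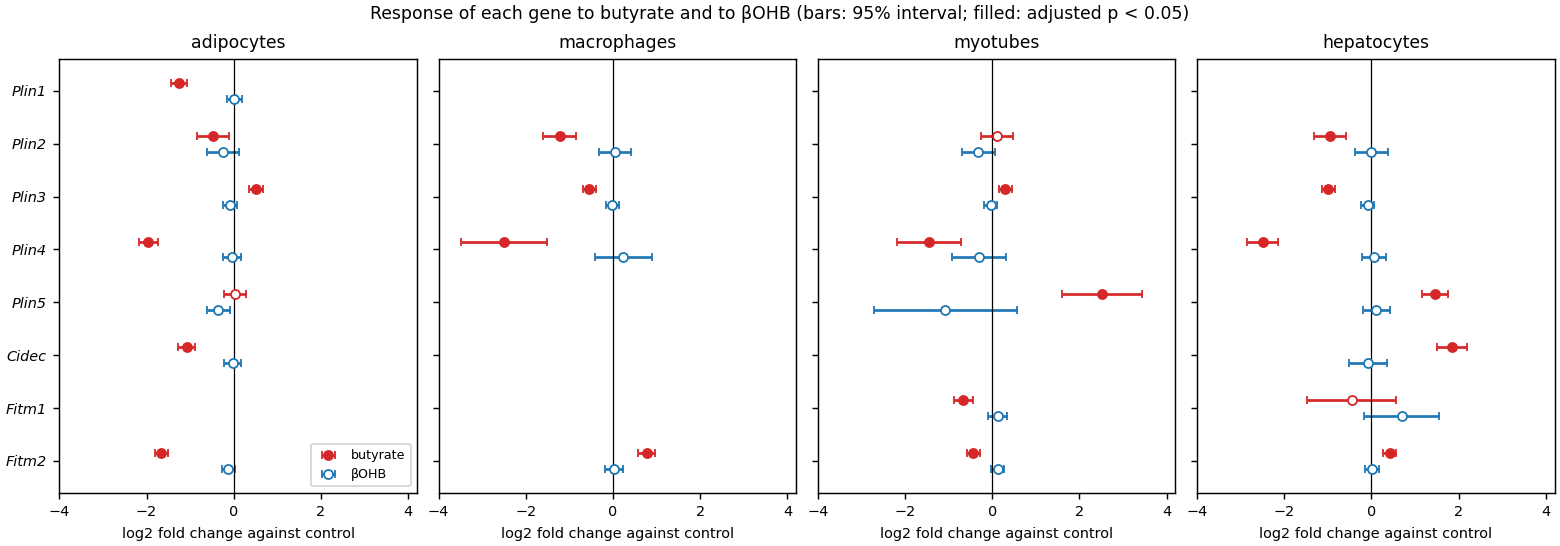
Log2 fold change against control (horizontal axis) of each gene under butyrate and under βOHB, one panel per cell type, with points as estimates (filled where called) and bars as 95% intervals of the edgeR fit. Genes with at most 3 counts in every library of both groups are left out, and the βOHB points lie between -1.07 and 0.69 while the butyrate points spread from -2.50 for Plin4 in macrophages to 2.51 for Plin5 in myotubes.

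Markers of other cell types moved with butyrate too, and their part in the results was not tested. In adipocytes, the 6 adipocyte markers summed to 7884 to 8641 CPM in controls and 6689 to 8380 CPM with butyrate, with 1 raised and 1 lowered, and the 5 fibroblast markers summed to 3898 to 4430 CPM and 3578 to 4596 CPM. Of 4 endothelial markers in adipocytes 2 were lowered, from a sum of 176 to 202 CPM to one of 117 to 134 CPM, and of 8 macrophage markers 2 were lowered (Csf1r and Cd14), from a sum of 313 to 375 CPM to one of 276 to 309 CPM. In macrophages the 8 macrophage markers went from 17667 to 17842 CPM to 10874 to 11423 CPM, with 4 of 8 lowered. The 3 proliferation markers were all lowered there, from 1306 to 1342 CPM to 509 to 607 CPM, and the 8 myotube markers were all raised, from 7.37 to 15.5 CPM to 22.6, 26.9 and 68.5 CPM in replicates 1, 2 and 3. In hepatocytes the 8 macrophage markers went from 297 to 343 CPM to 137 to 156 CPM, with 1 of 8 lowered, and the 4 endothelial markers from 64.6 to 72.1 CPM to 19.7 to 23.3 CPM, with 4 of 4 lowered, while the hepatocyte markers themselves stood at 48583 to 51186 CPM with butyrate. In myotubes the 8 myotube markers went from 25911 to 31681 CPM to 18085 to 23851 CPM, with 3 of 8 lowered, and the 8 macrophage markers from 122 to 324 CPM to 17.7 to 80.1 CPM, with 8 of 8 lowered. The 3 proliferation markers were all lowered in myotubes as well, from 29.5 to 64.5 CPM to 11.2 to 16.3 CPM. βOHB also lowered 8 of the 8 macrophage markers in myotubes, to 46.5 to 121 CPM, and 2 of the 3 proliferation markers (Mki67 and Top2a), with the sum at 17.3 to 22.2 CPM.

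Plin1 (ENSMUSG00000030546, GRCm38 chr7:79720218-79732903, minus strand), the gatekeeper of the fat cell droplet, was above 3 counts in adipocyte libraries only. The adipocyte controls read 873, 938 and 876 CPM (896 ± 36.3, SD, n = 3 here and throughout). In macrophage, myotube and hepatocyte controls no library held more than 2 counts, and the adipocyte mean was at least 6690-fold above the floor of 3 counts per library in myotubes. With butyrate the adipocyte libraries read 376, 339 and 410 CPM, all below the lowest control. The fall by 1.26 on the log2 scale (SE 0.09, adjusted p = 5.83e-12) left 375 ± 35.6 CPM. With βOHB they read 882, 912 and 921 CPM, inside the control range and with a log2 difference of 0.01 (95% interval -0.16 to 0.19). In butyrate-treated myotubes Plin1 was called as raised with 3, 1 and 2 counts against 0, 0 and 0 in controls, and because both groups lie at or under the floor no fold is given. That call was lost without butyrate replicate 1 (adjusted p = 0.0556) and in a fit of the 9 myotube libraries alone (adjusted p = 0.0647).

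Plin2 (ENSMUSG00000028494, chr4:86648386-86670060, minus strand), the coat of the common small droplet, was expressed in every library. Control libraries read 1165, 863 and 874 CPM in adipocytes (968 ± 171), 692, 732 and 739 in macrophages (721 ± 25.6), 147, 124 and 116 in myotubes (129 ± 16.0) and 1086, 1032 and 1044 in hepatocytes (1054 ± 28.1). Hepatocytes and adipocytes thus led and did not differ beyond their spread (ratio 1.09, adjusted p = 0.532). With library totals alone as the scaling the hepatocyte mean was 905 CPM, below adipocytes, and hepatocytes no longer passed against macrophages. Macrophages followed, 1.34-fold below adipocytes, a call that was lost without adipocyte control replicate 1 or without any single macrophage control. Myotubes came last, 7.50-fold below adipocytes and 8.16-fold below hepatocytes.

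Butyrate lowered Plin2 clearly in macrophages and hepatocytes. Macrophage libraries went to 305, 301 and 323 CPM, a fall by 1.22 on the log2 scale (SE 0.18, adjusted p = 8.00e-07). Hepatocyte libraries went to 551, 545 and 541 CPM, a fall by 0.95 (SE 0.18, adjusted p = 3.31e-05). In neither cell type did a butyrate library reach the lowest control. In adipocytes the butyrate libraries read 693, 693 and 703 CPM and the fall by 0.47 passed narrowly (SE 0.18, adjusted p = 0.0232). It was lost with library totals alone as the scaling (-0.38, adjusted p = 0.0775). It also rested on single libraries, with -0.32 and an adjusted p of 0.163 without control replicate 1, and with adjusted p of 0.0525 and 0.0564 without butyrate replicate 1 or 2. In myotubes butyrate replicates 1, 2 and 3 read 96.7, 101 and 221 CPM, so that replicate 3 lay above all controls and the other two below all controls. The log2 difference of 0.11 (95% interval -0.26 to 0.49, adjusted p = 0.603) became -0.38 (SE 0.12, adjusted p = 0.00753) without replicate 3, which passes in the downward direction. At the hepatocyte marker percentage of replicate 3, 0.309%, the Plin2 level of butyrate-treated hepatocytes comes to 1.69 CPM. What part the differences of this library had in the result was not tested. βOHB left Plin2 at 950, 836 and 658 CPM in adipocytes, 739, 738 and 759 in macrophages, 89.7, 110 and 110 in myotubes and 1001, 1159 and 1007 in hepatocytes. Only in myotubes were all 3 below the controls, with a log2 difference of -0.32 (95% interval -0.70 to 0.06, adjusted p = 0.463).

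**Figure D3:**
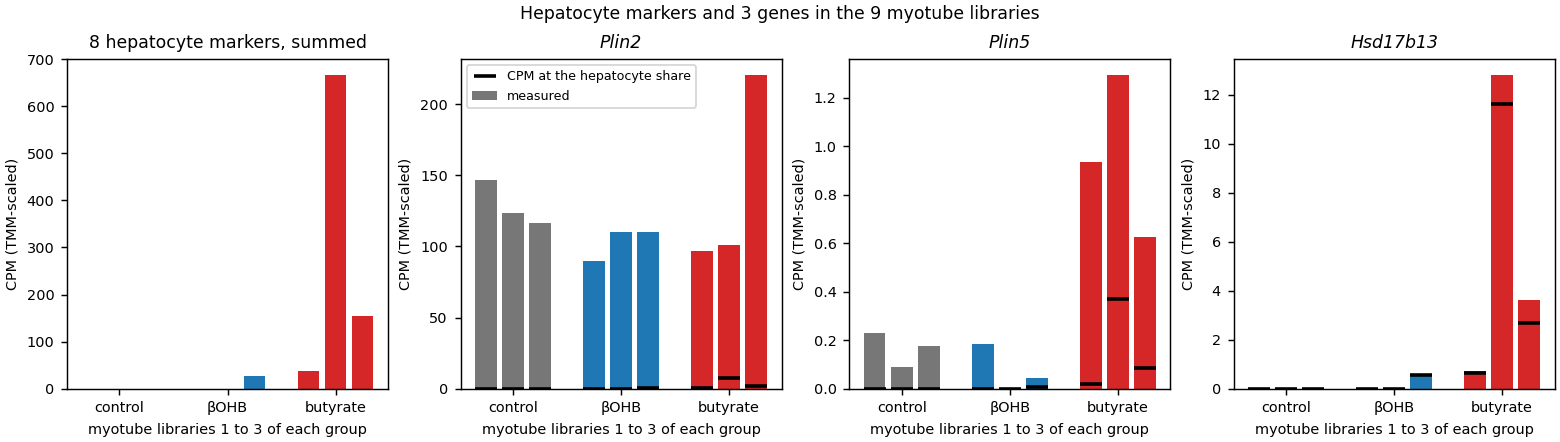
The 9 myotube libraries (control, βOHB and butyrate, 3 each) for the summed 8 hepatocyte markers, Plin2, Plin5 and Hsd17b13 in CPM, with a black dash where the library's hepatocyte marker percentage is applied to the level of the gene in hepatocytes given the same treatment. Plin2 is highest in butyrate replicate 3 at 221 CPM, whereas the hepatocyte markers and Hsd17b13 are highest in butyrate replicate 2.

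Plin3 (ENSMUSG00000024197, chr17:56277476-56292873, minus strand), the perilipin that also exists free in the cytosol, was highest in hepatocytes and macrophages. Controls read 170, 173 and 165 CPM in hepatocytes (169 ± 3.73), 138, 141 and 141 in macrophages (140 ± 1.66), 56.9, 55.4 and 50.5 in myotubes (54.3 ± 3.36) and 42.9, 49.4 and 48.6 in adipocytes (47.0 ± 3.53). All 6 pairs passed, but hepatocytes against macrophages was lost when libraries were scaled by their totals alone, and myotubes against adipocytes was lost without the filter on low counts, without adipocyte control replicate 1 or without myotube control replicate 1. Butyrate moved Plin3 in opposite directions. It rose in adipocytes to 68.9, 64.8 and 66.7 CPM (log2 fold change 0.51, SE 0.07, adjusted p = 6.29e-07) and in myotubes to 66.1, 64.5 and 70.4 CPM (0.30, SE 0.07, adjusted p = 0.000607). It fell in macrophages to 94.7, 94.3 and 101 CPM (-0.54, SE 0.07, adjusted p = 8.72e-08) and in hepatocytes to 86.3, 84.0 and 85.1 CPM (-0.99, SE 0.07, adjusted p = 3.32e-13). Control and butyrate libraries did not overlap in any of the 4. As a result the hepatocyte mean, 3.61-fold above adipocytes in controls, stood at 85.2 CPM against 66.8 CPM after butyrate. The βOHB log2 differences lay between -0.08 and -0.01.

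Plin4 and Plin5 are neighbours on chromosome 17 and answered butyrate in different ways. Plin4 (ENSMUSG00000002831, chr17:56100591-56109803) and Plin5 (ENSMUSG00000011305, chr17:56111601-56117596) lie on the minus strand with 1797 bases between them. The sequence at each start is shown because these adjacent genes moved in opposite directions under butyrate in hepatocytes and myotubes. It is taken from RefSeq on GRCm38.p6, reads 5′ to 3′ on the minus strand, and has matches to the CCAAT box in capitals (CCAAT, or ATTGG for the other strand). The Plin4 window is chr17:56109783-56110032, of which the last 21 bases, with the capitals, lie inside the gene as annotated by GENCODE, and the Plin5 window, cut where the annotated gene begins, is chr17:56117597-56117798.
Plin4: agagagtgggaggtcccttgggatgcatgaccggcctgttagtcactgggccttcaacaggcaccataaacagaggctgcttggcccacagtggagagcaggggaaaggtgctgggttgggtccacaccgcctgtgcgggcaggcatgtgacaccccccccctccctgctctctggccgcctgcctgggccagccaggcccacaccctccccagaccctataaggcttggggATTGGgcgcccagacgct
Plin5: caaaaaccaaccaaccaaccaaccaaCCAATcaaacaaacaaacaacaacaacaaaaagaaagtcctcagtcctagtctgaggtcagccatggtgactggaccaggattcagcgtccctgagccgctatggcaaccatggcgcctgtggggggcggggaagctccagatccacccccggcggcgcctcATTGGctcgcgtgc
The promoter table held all 8 members in 10 windows of 250 bases. The Plin3 window and the second windows of Plin5 and Cidec lay wholly inside the annotated gene, as did 127 bases of the Plin1 window. Each motif was searched as a fixed pattern of letters and in these windows only. A motif not found here may still be present in another form or further away, so its absence from the gene is not concluded. Searched on both strands, CCAAT was found once each in the windows of Plin2, Plin3 and Plin4 and at 2 places in the first Plin5 window, beside 33.8% of all 32851 promoters with a match. The peroxisome proliferator response element (a direct repeat, 0.338% of promoters), the E-box CACGTG (6.02%) and TATAAA (12.4%) were in none of the 10 windows.

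Plin4, the white fat perilipin, showed the largest fall of the 8 members under butyrate in each of the 4 cell types. Adipocyte controls read 1305, 1167 and 1206 CPM (1226 ± 70.9), which was 92.9-fold above hepatocytes (10.7, 15.8 and 13.1 CPM), 1146-fold above myotubes (1.01, 0.749 and 1.45 CPM) and 1538-fold above macrophages (1.14, 0.554 and 0.692 CPM). Myotubes and macrophages did not differ beyond their spread (adjusted p = 0.231), though the pair passed without macrophage control replicate 1. Butyrate took the adipocyte libraries to 317, 298 and 332 CPM, 3.88-fold lower (log2 fold change -1.96, SE 0.10, adjusted p = 4.52e-16). It took the hepatocyte libraries to 2.81, 2.68 and 1.44 CPM, 5.72-fold lower (-2.49, SE 0.17, adjusted p = 9.74e-14). Both cell types showed a wide gap between the groups, and the drop was also present where Plin4 was scarce. In macrophages 27, 11 and 16 counts became 3, 4 and 3 counts (-2.50, SE 0.48, adjusted p = 3.56e-05), and in myotubes 22, 17 and 33 counts became 7, 11 and 10 counts, or 0.285, 0.445 and 0.447 CPM (-1.44, SE 0.36, adjusted p = 0.00076). Plin4 was the only member lowered in all 4 cell types with every library kept. Plin2 was lowered in adipocytes, macrophages and hepatocytes, and in myotubes only without butyrate replicate 3 (-0.38, edgeR adjusted p = 0.00753). With βOHB its log2 differences were -0.04, 0.24, -0.30 and 0.06 in adipocytes, macrophages, myotubes and hepatocytes, and none passed. The last exon of Plin4 shares 17 bases, 0.294% of its exons, with Hdgfl2 on the opposite strand, and whether the counting used strand was not given in the sources used here. Hdgfl2 rose in all 4 cell types (log2 fold changes 1.27, 0.67, 0.85 and 0.95 in adipocytes, macrophages, myotubes and hepatocytes), opposite to Plin4.

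Plin5, the perilipin of oxidative cells, was highest in adipocytes, where butyrate did not move it, and rose in hepatocytes and myotubes. Adipocyte controls read 30.4, 21.7 and 27.5 CPM (26.5 ± 4.43) and hepatocyte controls 10.6, 10.9 and 8.87 CPM (10.1 ± 1.11), a ratio of 2.62. Myotube controls held 5, 2 and 4 counts and macrophage controls 1, 0 and 0 counts. The myotube mean was thus 161-fold below that of adipocytes. In hepatocytes butyrate gave 30.6, 26.6 and 26.3 CPM, all far above the controls and 2.74-fold higher (log2 fold change 1.46, SE 0.14, adjusted p = 3.26e-10). In myotubes it gave 23, 32 and 14 counts or 0.936, 1.29 and 0.626 CPM, 5.79-fold higher (2.51, SE 0.44, adjusted p = 1.41e-05). The marker percentages of those libraries, taken of the Plin5 level in butyrate-treated hepatocytes, come to 0.0204, 0.370 and 0.0859 CPM, less than was measured in each. The log2 fold change was 2.23 (adjusted p = 0.000249) without replicate 2. In adipocytes the butyrate libraries read 27.2, 26.3 and 27.8 CPM, inside the control range (0.03, 95% interval -0.23 to 0.29, adjusted p = 0.857). The βOHB libraries of adipocytes read 21.6, 20.6 and 19.8 CPM, just below the lowest control, with a log2 difference of -0.36 (95% interval -0.62 to -0.09) that did not pass after adjustment in edgeR (adjusted p = 0.592). In macrophages the butyrate libraries held 2, 2 and 3 counts, at the floor.

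**Figure D4:**
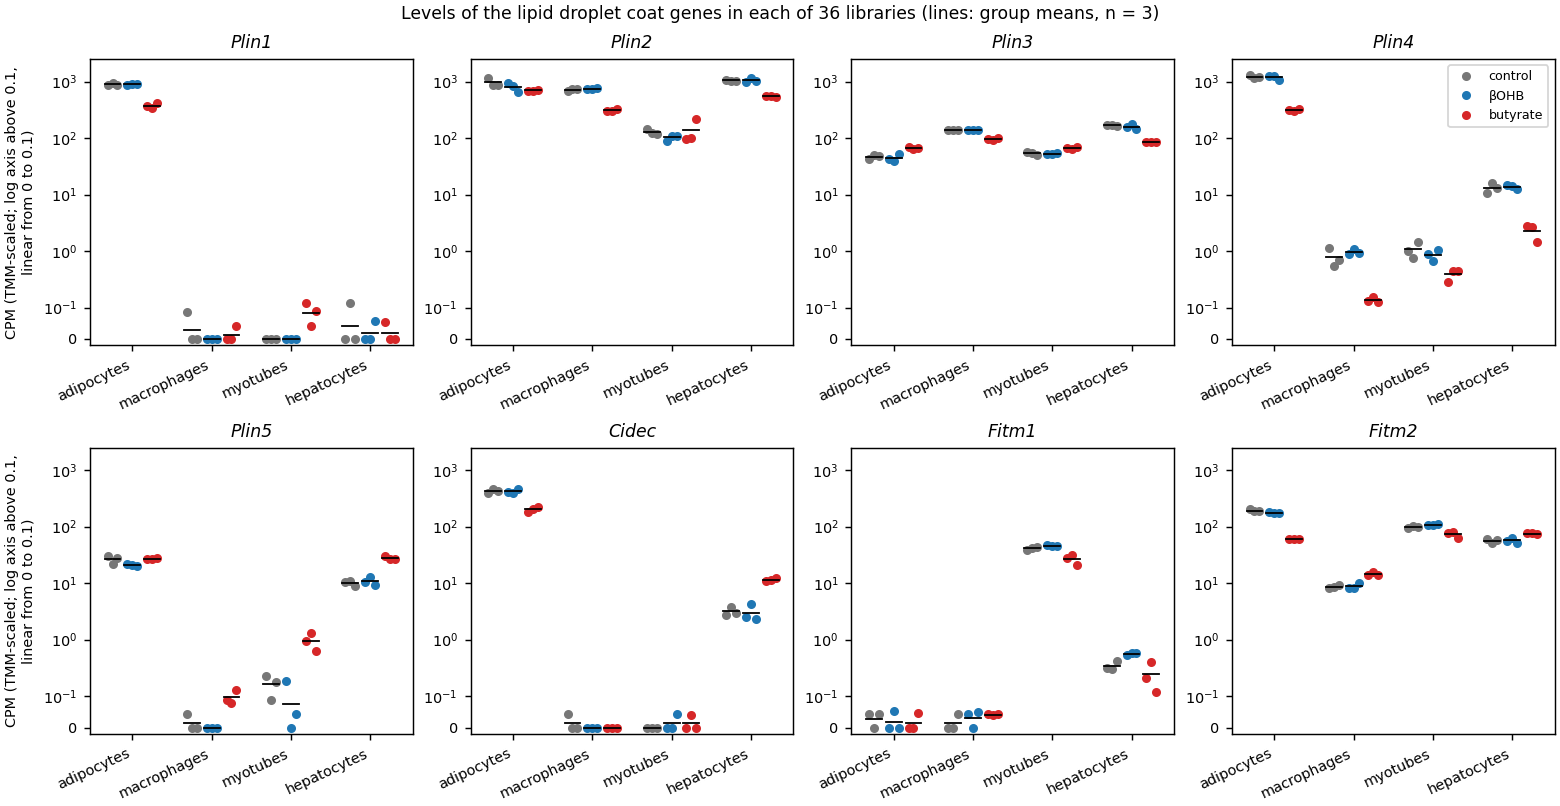
CPM of each of the 36 libraries for the 8 genes, one panel per gene, on an axis that is linear near 0 and logarithmic above, grouped by cell type and treatment. Butyrate points lie below the control points for Plin4 in all 4 cell types, and above them for Plin5 and Cidec in hepatocytes.

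Cidec (ENSMUSG00000030278, chr6:113424634-113435760, minus strand), the droplet fusion gene, moved in opposite directions in the cell types that express it. Adipocyte controls read 394, 467 and 424 CPM (428 ± 36.5), 134-fold above hepatocyte controls at 2.76, 3.81 and 3.02 CPM (3.20 ± 0.549) and at least 3198-fold above the floor in myotubes. Butyrate lowered it in adipocytes to 181, 208 and 219 CPM (log2 fold change -1.08, SE 0.09, adjusted p = 4.33e-10). It raised it in hepatocytes to 11.0, 11.5 and 12.1 CPM, 3.62-fold higher (1.85, SE 0.17, adjusted p = 5.93e-10). Neither pair of groups overlapped, and the gap between the cell types narrowed from both sides. The 6 adipocyte markers in hepatocytes summed to 3.78 to 5.29 CPM in controls and 10.9 to 14.9 CPM with butyrate, with 2 of 6 raised. The raised markers were Fabp4, from 4.89, 5.29 and 3.78 CPM to 9.70, 12.8 and 9.25 CPM, and Slc2a4, from 0, 0 and 0 counts to 51, 41 and 27 counts, while Adipoq, Cfd, Retn and Lep held at most 2 counts in any hepatocyte library. What part these had in the Cidec result was not tested. In macrophages and myotubes no library held more than 1 count. With βOHB Cidec read 403, 399 and 460 CPM in adipocytes and 2.52, 4.21 and 2.28 CPM in hepatocytes, across the control range in both.

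Fitm1 (ENSMUSG00000022215, chr14:55575617-55576954, plus strand), the muscle form of the FIT pair, was a myotube gene here. Myotube controls read 39.4, 42.7 and 44.3 CPM (42.1 ± 2.52), 122-fold above hepatocyte controls with 5, 5 and 7 counts, and no adipocyte or macrophage library held more than 1 count. Butyrate lowered it in myotubes to 28.3, 31.0 and 20.8 CPM (log2 fold change -0.66, SE 0.11, adjusted p = 3.88e-06), with no overlap. βOHB libraries of myotubes read 46.5, 46.0 and 45.7 CPM, each above the highest control, but the log2 difference of 0.13 (95% interval -0.09 to 0.35) did not pass. The antisense gene Gm15932 overlaps 109 bases, 11.2%, of Fitm1, and their reads cannot be told apart without strand.

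Fitm2 (ENSMUSG00000048486, chr2:163466379-163472629, minus strand), the widely expressed FIT gene, fell where it was highest and rose where it was lowest. Controls read 201, 190 and 186 CPM in adipocytes (192 ± 7.95), 93.2, 102 and 100.3 in myotubes (98.4 ± 4.55), 59.9, 52.0 and 57.7 in hepatocytes (56.5 ± 4.09) and 8.14, 8.52 and 9.21 in macrophages (8.62 ± 0.545). Every pair passed, with adipocytes 22.3-fold above macrophages, 3.41-fold above hepatocytes and 1.96-fold above myotubes. Butyrate lowered Fitm2 in adipocytes to 60.0, 60.9 and 61.7 CPM, 3.16-fold lower (log2 fold change -1.66, SE 0.07, adjusted p = 4.56e-18), and in myotubes to 76.4, 79.3 and 63.4 CPM (-0.43, SE 0.07, adjusted p = 4.37e-06). It raised Fitm2 in hepatocytes to 76.1, 76.6 and 73.4 CPM (0.42, SE 0.07, adjusted p = 1.18e-05) and in macrophages to 14.0, 15.9 and 14.1 CPM (0.77, SE 0.09, adjusted p = 1.76e-08). No butyrate library overlapped its controls in any cell type, and hepatocytes overtook adipocytes in mean level, 75.4 against 60.9 CPM. The 3 βOHB libraries of adipocytes read 181, 177 and 172 CPM, below the controls, with a log2 difference of -0.13 (95% interval -0.27 to 0.02). The antisense gene 2310001K24Rik overlaps 227 bases, 5.72%, of Fitm2.

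The butyrate response differed between cell types for 7 of the 8 members in a joint test of the interaction in edgeR, where 74.5% of all genes were called. Fitm1 was the exception (adjusted p = 0.589), a gene with at most 1 count in any adipocyte or macrophage library and 2 to 8 counts in the control and butyrate libraries of hepatocytes. Among the 7, Plin1 was above the floor in adipocytes only and had passed the filter through them alone, and it was lost without myotube butyrate replicate 1 (adjusted p = 0.0833) or with the replicate block (adjusted p = 0.0605). Plin3 rose in adipocytes and myotubes and fell in macrophages and hepatocytes, and Fitm2 did the reverse. Plin4 passed only just (adjusted p = 0.0458), having fallen everywhere, and missed the threshold with the filter set at more than 20 counts in at least 6 libraries (adjusted p = 0.0501) or without hepatocyte butyrate replicate 3 (adjusted p = 0.164), among other single libraries. The βOHB response differed between cell types for 0 of the 8 members, with 0.978% of all genes called.

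Butyrate and βOHB were compared directly at the same dose and time in the 4 cell types. The members called were 6 in adipocytes (59.5% of all genes called), 5 in macrophages (64.7%), 7 in myotubes (66.0%) and 7 in hepatocytes (63.5%). In adipocytes Plin1 was lower with butyrate than with βOHB by 1.27 on the log2 scale (SE 0.09, adjusted p = 5.19e-12) and Plin5 was higher by 0.39 (SE 0.13, adjusted p = 0.00992), although butyrate had not moved Plin5 against PBS. Plin2 in adipocytes did not pass between the compounds (-0.23, 95% interval -0.60 to 0.14, adjusted p = 0.289). In hepatocytes Fitm1 held 10, 11 and 10 counts with βOHB and 4, 8 and 2 counts with butyrate (-1.15, SE 0.43, adjusted p = 0.0218). That difference in low counts was lost with limma-voom (adjusted p = 0.0588) and without βOHB replicate 2, butyrate replicate 1 or butyrate replicate 3 (adjusted p up to 0.101). In myotubes Plin2 was 0.43 higher with butyrate (adjusted p = 0.0392), but -0.06 without butyrate replicate 3. That call was also lost with limma-voom, with the replicate block, in a fit of the 9 myotube libraries alone and without βOHB replicate 1. The calls for Plin1 in myotubes and Plin5 in macrophages rested on at most 3 counts in each library. The Plin1 call was lost without butyrate replicate 1 and in a fit of the 9 myotube libraries alone.

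Around the coat, other genes of the droplet were read from a list of 22 that covers the CIDE family, droplet assembly, lipases, lipase inhibitors and further droplet proteins. Butyrate raised 4 and lowered 10 of them in adipocytes, raised 8 and lowered 9 in macrophages, raised 12 and lowered 4 in myotubes, and raised 9 and lowered 7 in hepatocytes. These totals of 14, 17, 16 and 16 of 22 lie near or above the 61.0%, 65.0%, 66.5% and 63.5% of all genes called, and nothing particular to the list is read from them. With single myotube libraries left out the myotube total was 13 to 18, lowest without butyrate replicate 2 and highest without butyrate replicate 3, and with single macrophage libraries left out the macrophage total was 15 to 16. βOHB called 0 of the 22 in each cell type, with 2, 0, 1 and 1 at an unadjusted p below 0.05 in adipocytes, macrophages, myotubes and hepatocytes. In myotubes 1 was called with DESeq2, with library totals alone, without the filter on low counts or without control replicate 3. Dgat2 and Acsl3, which make triglyceride and activate fatty acids at the growing droplet, were raised in all 4. Dgat2 went from 156 ± 6.52 to 379 ± 15.4 CPM in adipocytes and from 183 ± 5.85 to 507 ± 22.8 CPM in hepatocytes, with log2 fold changes of 1.28, 2.40, 1.11 and 1.47 in adipocytes, macrophages, myotubes and hepatocytes. G0s2, the inhibitor of the lipase Pnpla2, was lowered in all 4 by 1.09, 1.42, 1.97 and 1.30 in the same order, and the macrophage call was lost without butyrate replicate 1 (-0.94, adjusted p = 0.0639).

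Lipe, the hormone-sensitive lipase, was called in opposite directions. It fell in adipocytes from 740 ± 28.2 to 439 ± 43.1 CPM (log2 fold change -0.75) and rose in hepatocytes from 10.9 ± 1.06 to 37.1 ± 1.30 CPM (1.77). In adipocytes Tmem159, a partner of seipin in droplet assembly, rose by 0.94 from 23.9 ± 0.897 CPM, and Hilpda, a lipase inhibitor, rose by 0.90 from 11.8 ± 2.22 CPM. In macrophages Mgll, the monoglyceride lipase, fell from 9.31 ± 0.0631 to 3.92 ± 0.700 CPM (-1.24). Pnpla3 in macrophages went from at most 1 count to 5 to 7 counts per library (3.61), and Cidea from 0 counts to at most 2, for which no fold is given. The Cidea call was lost with DESeq2 (adjusted p = 0.0716), without the filter on low counts (0.0681), in a fit of the 9 macrophage libraries alone (0.0817), and without any single control or butyrate replicate 3 (adjusted p of 0.0719 to 0.0951). In hepatocytes Cideb, the liver CIDE gene, fell from 51.2 ± 0.883 to 24.4 ± 1.01 CPM (-1.07), opposite to Cidec, and Mettl7b fell from 103 ± 5.23 to 52.4 ± 3.57 CPM (-0.97).

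In myotubes the largest rises were those of Hsd17b13 (log2 fold change 7.34), a droplet protein of liver, of Mettl7b (5.00) and of Pnpla3 (2.45). Hsd17b13 read 0.732, 12.8 and 3.62 CPM in butyrate replicates 1, 2 and 3, and the marker percentages of these libraries, taken of its level in butyrate-treated hepatocytes, come to 0.642, 11.6 and 2.70 CPM. Mettl7b read 0.0814, 1.38 and 0.492 CPM, with 0.0385, 0.698 and 0.162 CPM at those percentages. Both genes were lowest in replicate 1 and highest in replicate 2, which is also the order of the hepatocyte markers. Pnpla3 read 0.488, 0.162 and 0.671 CPM and was lowest in replicate 2. The source of these rises was not tested. Of the genes lowered in myotubes, Faf2 fell by 0.36 from 54.2 ± 1.98 CPM.

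**Figure D5:**
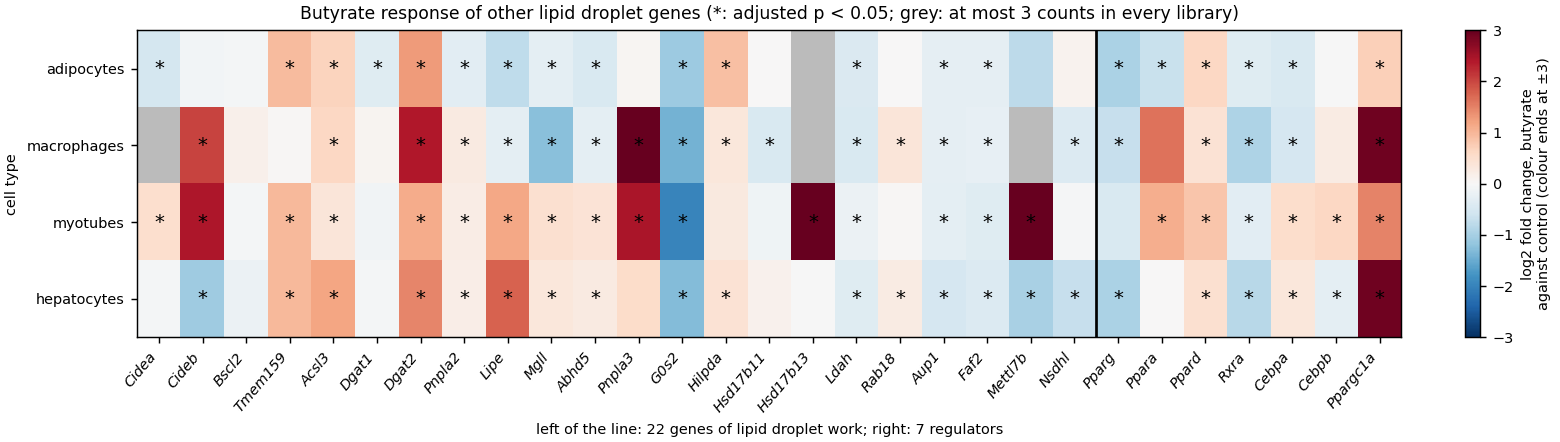
Heat map of the butyrate log2 fold change of 22 droplet genes and 7 regulators in the 4 cell types, with colour ending at -3 and 3 and grey for at most 3 counts in every library of both groups. Dgat2 and Acsl3 are raised and G0s2 is lowered in the row of every cell type, and Lipe changes sign between adipocytes and hepatocytes.

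A second list held 7 transcription factors and coactivators known to act on perilipin genes. Butyrate raised 2 and lowered 4 in adipocytes, raised 2 and lowered 3 in macrophages, raised 5 and lowered 1 in myotubes, and raised 3 and lowered 3 in hepatocytes, beside the same 61.0%, 65.0%, 66.5% and 63.5% of all genes. With single myotube libraries left out the myotube total of 6 was 6 to 7. Pparg, the nuclear receptor that drives Plin1, Plin4 and Cidec in fat cells, fell in adipocytes from 263 ± 2.57 to 136 ± 8.63 CPM (log2 fold change -0.95), and also fell in macrophages (-0.69) and hepatocytes (-0.95). Its partner Rxra was lowered in all 4, by 0.37 in adipocytes, 0.92 in macrophages, 0.32 in myotubes and 0.83 in hepatocytes. The coactivator Ppargc1a was raised in all 4, from 4.62 ± 0.0481 to 34.8 ± 2.64 CPM in hepatocytes (2.91) and from 0.325 ± 0.170 to 2.53 ± 0.474 CPM in macrophages (2.92). Ppard, a further nuclear receptor of the PPAR family, was raised in all 4 (0.62, 0.45, 0.83 and 0.47 in adipocytes, macrophages, myotubes and hepatocytes). Cebpa, a factor of fat cell and liver differentiation, was lowered in adipocytes (-0.47) and macrophages (-0.50) and raised in myotubes (0.53) and hepatocytes (0.34). Under βOHB the single call was Cebpa in myotubes, from 8.83 ± 1.21 to 6.32 ± 0.507 CPM (-0.48, adjusted p = 0.0319). It was lost with limma-voom (adjusted p = 0.174), in a fit of the 9 myotube libraries alone (adjusted p = 0.292) and without control replicate 1 or 2 (adjusted p = 0.305 and 0.103) or βOHB replicate 1 or 2.

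The chromosome neighbours of the members moved in both directions under butyrate. Of 14 protein-coding neighbours 12 were tested, and butyrate raised 4 and lowered 2 in adipocytes, raised 5 and lowered 3 in macrophages, raised 6 and lowered 5 in myotubes, and raised 5 and lowered 4 in hepatocytes, where 61.0%, 65.0%, 66.5% and 63.5% of all genes were called. βOHB called 0 of the 12 in each cell type.

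Over the 12 group means of log2 CPM, the genes whose levels ran most like a member's were found by Pearson's r, as a description of 12 points that share cell type and treatment. For Plin1 they were A530053G22Rik, Gm47593 and Adipoq (each r = 0.999), for Plin2 Parp9 (0.986), Sfxn5 (0.979) and Nmi (0.978), and for Plin3 Ramac (0.971), Oit3 (0.970) and Sharpin (0.964). For Plin4 they were Cask (0.994), Klhl4 (0.990) and Rex1bd (0.985), for Plin5 Steap4 (0.990), Elovl6 (0.988) and Bckdhb (0.987), and for Cidec Dhrs7b (0.993), Aldh6a1 (0.985) and Gdf10 (0.985). For Fitm1 they were Chil1 (0.998), Ripply1 (0.996) and Csrp3 (0.995), and for Fitm2 Bcl2l13 (0.977), Uqcrfs1 (0.976) and Gm10053 (0.975). Ranked by Spearman's rho instead, 0 of these 24 genes were named again, and over the 36 single libraries 13 of 24 were. Among the members, the closest pair was Plin4 with Cidec (r = 0.952), then Plin1 with Plin4 (0.920) and Plin5 with Cidec (0.901), and the most opposed was Plin2 with Fitm1 (-0.868).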

How the data were processed

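The deposited table holds estimated counts per gene, which the authors made by quantifying paired-end BGISEQ-500 reads with Salmon 1.2.1 and summing transcripts to genes. The paper also describes a scaling of these estimates for mean transcript length and library size. The deposited counts were rounded to whole counts here. Members and gene lists were chosen with earlier results of these data known. In R 4.3.3, edgeR 4.0.16 kept genes above 1 CPM in at least 6 libraries, applied TMM scaling (factors 0.823 to 1.20) and fitted 1 model with 12 group means. Contrasts were tested by edgeR's quasi-likelihood F test with Benjamini-Hochberg adjustment over 15340 genes and called below 0.05. CPM values use TMM-scaled totals. On simulated data with 200 of 15340 genes changed, the fit recovered 89% to 94% of 2-fold and 76% to 80% of 1.5-fold changes. Butyrate moved a far larger share of genes, so the simulation does not test scaling or calls under such a change. No pair of libraries agreed within sampling noise. DESeq2 1.42.0, limma-voom (limma 3.58.1), other scalings, filters and left-out libraries were alternatives.

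Named beside the members were, of the droplet and regulator lists, the 3 called genes of largest change in each direction per cell type under butyrate and every called gene under βOHB, the 3 genes most like each member, and overlapping genes and neighbours. Some further genes called in all 4 cell types were added after their values were seen. Gene positions are from GENCODE on GRCm38. The floor of 3 counts covers counting error only. The 95% intervals come from the edgeR fit and take in the spread between libraries. Figures were drawn with matplotlib 3.10.9.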

Additional observations from a re-analysis of the deposited data

Results flagged for a closer look

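The butyrate response, as the log2 fold change against PBS, differed between the 4 cell types for 7 of the 8 genes in edgeR's joint quasi-likelihood test of the interaction with Benjamini-Hochberg adjustment over all genes, of which 74.5% were called. The adjusted p was 4.01e-17 for Fitm2, 1.81e-13 for Plin3 and 3.95e-11 for Cidec, each of them called higher under butyrate somewhere and lower elsewhere. It was 2.93e-07 for Plin5, raised in hepatocytes and myotubes and near 0 in adipocytes, and 0.000196 for Plin2, with log2 fold changes of -0.47, -1.22, 0.11 and -0.95 in adipocytes, macrophages, myotubes and hepatocytes, of which the myotube value was -0.38 without butyrate replicate 3. It was 0.0458 for Plin4, lowered in all 4 cell types, and 0.0184 for Plin1, which fell in adipocytes and whose counts in the other 3 cell types, including its call as raised in myotubes, were at or under the floor. The Plin1 difference was lost without myotube butyrate replicate 1 (adjusted p = 0.0833).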

How the results depend on the processing

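The alternatives gave 1067 values for 72 called log2 fold changes, those of members and of list genes named by the stated rule. Of these values 1027 kept their direction and call, 39 were no longer called and 1 changed direction. The last was Plin2 with butyrate against βOHB in myotubes, at -0.063 without butyrate replicate 3 (-0.063 to 0.64 with single libraries left out). Calls of list genes printed outside that rule, such as those of Acsl3 and Ppard, were not in this tally. Among the 49 comparisons of members that were not called, 61 of 688 values had the other sign, one being Plin2 under butyrate in myotubes, from 0.11 to a called -0.38 without butyrate replicate 3. The median log2 fold change of the members under butyrate turned in myotubes from 0.21 to -0.16 without members at or under the floor and to -0.036 without butyrate replicate 3 (-0.036 to 0.32 with single libraries left out), and in macrophages from -0.70 to 0.35 without control replicate 1 (-0.89 to 0.35 with single libraries left out). Of the counts of members called, βOHB against control in myotubes gave 1 (Plin2) without the filter on low counts, and butyrate against βOHB in myotubes gave 4 at an unadjusted P below 0.001. The droplet list gave 9 called genes in butyrate-treated macrophages at that threshold (17 otherwise), and 1 under βOHB in myotubes with library totals alone, DESeq2 or no filter (0 to 1 with single libraries left out). The regulator list gave 0 under βOHB in myotubes with limma-voom or the 9 myotube libraries alone (0 to 1 with single libraries left out). With RLE scaling, the members not overlapping their controls under βOHB were 1 in adipocytes and 1 in macrophages. Scaling by library totals alone moved the median over all genes under butyrate by 0.20 on the log2 scale in macrophages, 0.13 in myotubes and 0.07 in adipocytes, and the share raised among called genes from 49.0% to 66.7%, from 49.8% to 61.8% and from 50.4% to 58.8%, and no called member changed direction under any scaling, though the adipocyte Plin2 call was lost with library totals alone. Same-numbered replicates correlated between -0.264 and 0.273, and in no comparison did every pair pass 0.1, so the numbers were not taken as pairs. With the replicate block, members called in butyrate against βOHB in myotubes went from 7 to 6 (Plin2, 0.37, adjusted p = 0.0678), the difference of the butyrate response from 7 to 6 (Plin1, adjusted p = 0.0605), and the cause was not tested. Leaving out myotube butyrate replicates 2 and 3 together, chosen after seeing the data, leaves 1 butyrate library, which the fit assumes to vary like the other groups. Members called were then 7, droplet genes 14 and regulators 6, the median log2 fold change of the members was -0.17 against 0.21, and Mettl7b was not called (2.10, adjusted p = 0.226). Counts under about 10 per library, as for Fitm1 in hepatocytes, limit precision.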
